A study of Mus musculus with 6 samples.

Results

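Cytoplasmic ribosomes are built from 2 subunits, each made of RNA and of many small proteins, and the genes of these proteins are the subject here. They were taken by name from the mouse annotation, as protein-coding genes called Rpl or Rps with a number (with an optional letter), or Rplp0, Rplp1, Rplp2 and Rpsa, leaving out S6 kinases, like-named paralogues and pseudogenes. The rule found 76 genes. The 4 on the X chromosome were set aside, since the samples differ in sex, and 72 genes remained of 20807 autosomal protein-coding genes, 43 of the large and 29 of the small subunit. Their places in the nucleus were followed by in situ Hi-C, in which DNA ends that are near one another in the fixed nucleus are ligated, so that a sequenced read pair marks 2 loci that were in contact.

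The Erg KO samples were Rag1CreT/+;Erg fl/fl, in which Cre recombinase expressed from Rag1 is meant to delete the gene of the ETS factor Erg. The CreT control samples were Rag1CreT/+ with Erg intact, and the Erg fl/fl control samples were Rag1Cre+/+;Erg fl/fl, with floxed alleles and no Cre transgene. Each genotype had 2 libraries, replicate 1 from a female and replicate 2 from a male, except that both CreT control libraries were from females. All were marrow progenitors labelled C56BL/6, grown on OP9 feeder cells with SCF, IL7 and FL for 8 days, and then selected for B220, a surface marker of the B lineage. The strain, the culture and the selection were shared by all groups, while no label gives the animals' age. The study treats the Erg KO cells as pre–proB cells and the control cells as proB cells, a later stage, so that the loss of Erg and the stage of the cells cannot be told apart. Contact counts hold no transcripts, so neither the deletion of Erg nor the cell type could be checked from them. The labels call the libraries of a group replicates without naming the animals, so that p-values measure the spread between these libraries only.

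The deposited matrices held between 29014581 and 68085468 read pairs per library, the lowest number in Erg fl/fl control replicate 2. That lowest total is below the range of library sizes stated in the study's methods, for a reason that is not known. The totals of the other libraries lie within the stated range. Contacts between autosomes, called trans contacts, made up 32.3% and 34.6% of autosomal read pairs in the Erg KO libraries, 24.7% and 26.8% in the CreT control libraries and 24.3% and 21.6% in the Erg fl/fl control libraries. The local contact levels of all bins correlated with r = 0.954 within the Erg KO pair, 0.990 within the CreT control pair and 0.963 within the Erg fl/fl control pair, and with r = 0.746, the lowest value, between the first Erg KO library and the second Erg fl/fl library. These correlations run over bins of the genome, which are not independent. Erg fl/fl control replicate 2 was the shallowest library and had the highest local contact levels at these genes, and values without it are given for some results only.

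Ribosomal protein genes are among the most steadily and strongly transcribed genes of growing cells. Their messages begin with a C followed by a run of C and U (a terminal oligopyrimidine, or TOP, tract), by which the mTOR pathway sets their translation, and their short promoters rarely have a TATA box. Chromosomes fold into active (A) and inactive (B) compartments and, on a finer scale, into domains separated by borders, and strongly transcribed genes are commonly found in the A compartment and near borders. Domains are formed by cohesin and CTCF, which were not measured here.

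RefSeq promoter windows of GRCm38.p6, which run from 250 bases before the annotated start to 50 bases after it, were found for 52 of the 72 genes. A run of at least 5 pyrimidines that began with a C at the start itself was found in 12 of the 52 (23.1%), against 2.51% of 25748 autosomal genes. These 25748 were not limited to protein-coding genes, as the 52 were. The shares of all windows, here and below, thus come from a broader class of genes. A run of at least 8 pyrimidines within 15 bases of the start was found in 22 (42.3%), against 11.9% of all. The next lines show such starts, 10 bases before the annotated start and 20 from it, with the C and the pyrimidines that follow it in capitals, for 3 genes that recur below.
Rps18, chr17:33955646-33955675, minus strand: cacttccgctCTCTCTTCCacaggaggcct
Rps10, chr17:27635225-27635254, minus strand: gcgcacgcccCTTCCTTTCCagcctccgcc
Rpl38, chr11:114668570-114668599, plus strand: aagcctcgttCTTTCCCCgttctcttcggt
Rps12 and Rps23, the pair of genes whose bins changed compartment score in the Erg KO libraries, had no C at the annotated start.
Rps12, chr10:23787190-23787219, minus strand: tcatgcggccaccgccggccttttcccctg
Rps23, chr13:90923112-90923141, plus strand: cggctgggcggggcttcccgcaatgccttg
The annotated start may differ from the start used in these cells, and the letters of a window say nothing of what binds it.

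ETS factors, to which Erg belongs, share a core of GGAA, and the longer form CCGGAAG was searched on both strands because Erg is the deleted gene. It was present in 21 of 52 windows (40.4%), against 9.29% of all, and did not overlap any of the other motifs searched in these windows. Local contact, described below, fell in 33.2% of all bins. It fell at 17 of 21 genes with the ETS core (median log2 change -0.50). Measured genes whose windows lacked the core had a like share of falls, 24 of 30 (median -0.43). The next lines give it in capitals, as CCGGAAG or, where it lies on the other strand, as CTTCCGG, for 5 genes that recur below and were picked after their values were seen, while Rplp0, Rpl13, Rpl22, Rps27 and Rpl12, whose bins also had large falls, lacked it.
Rpl38, chr11:114668549-114668577, plus strand: gggttaaccgtCCGGAAGcggaagcctcg
Rpl6, chr5:121204502-121204530, plus strand: ttgcttatagaCCGGAAGccgctgcctta
Rpl26, chr11:68901559-68901587, plus strand: aacttacagaaCCGGAAGtcgcgtgtagt
Rpl19, chr11:98026660-98026688, plus strand: acttagcgtgaCTTCCGGctacccagagg
Rps2, chr17:24719925-24719953, plus strand: atttatacgtcCTTCCGGctggtgtaggg
Both the ETS core and the pyrimidine start were found in 8 genes, Rpl35, Rps21, Rps6, Rplp2, Rpl38, Rpl15, Rps10 and Rps18. Of the other motifs, GGGCGG, the core bound by SP factors, was found in 57.7% of windows against 36.3% of all, TGCGCA of the NRF1 site in 17.3% against 8.05%, CACGTG in 9.62% against 7.23% and AAGATGGC of YY1 in 7.69% against 2.87%. TATAAA was the only one found less often than in all windows, in 5.77% against 14.2%. The windows had 58.7% GC against 53.0% for all, which bears on the share of each GC-rich motif.

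Hi-C read pairs were counted by the authors in bins of about 100 kb of the mm10 genome, and a gene stands here for the bin that holds its start. The 72 genes lay in 71 bins on 18 autosomes, 14 of them on chromosome 7, and 13 had another member within 1 Mb. There was 1 bin with 2 of the genes, and the bin of Rps9 was left out for its coverage, so that 70 bins with 71 genes were measured. All values belong to whole bins. A ribosomal protein gene is a small part of its bin, and the 70 bins held a median of 4 protein-coding gene starts (at most 11, in the bin of Rps18), against a mean of 0.860 over all 23649 autosomal bins kept, of which 58.4% held none. The bins were also rich in GC, with a median of 47.2% (39.4% to 54.1%) against 41.5% for all bins, and 65 of 70 lay above that median. The 78 genes of mitochondrial ribosomal proteins, which make a separate ribosome and serve here for comparison, lay in 77 kept bins with a median of 46.1% GC and also 4 gene starts.

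The first question was how densely these genes contact their surroundings. Local contact is the number of read pairs of a bin with bins 200 kb to 2 Mb away, over the number expected from distance in the same library. The bins of ribosomal protein genes had more local contact than most bins in every library, but less in Erg KO cells than in both controls. Their median level was 1.15 and 1.23 in the Erg KO libraries, against 1.45 and 1.45 in the CreT control and 1.42 and 1.60 in the Erg fl/fl control libraries. Over all bins the medians were 0.969 and 0.959 in the Erg KO libraries and lay between 0.924 and 0.956 in the 4 control libraries. The Erg KO libraries were both below all 4 control libraries in 55 of the 70 bins, which held for 28.7% of all bins.

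In the edgeR fit over all bins, with sex in the model, local contact fell in 56 of the 70 bins in the Erg KO libraries against both controls and rose in 2. Of all bins, 33.2% fell and 34.3% rose. The median log2 change was -0.45 over the 70 bins, against 0.005 over all bins, and ranged from -0.78 (Rplp0) to 0.19 (Rps27a). Taken against the CreT control alone, 56 bins fell and 1 rose (30.1% and 30.2% of all bins), and against the Erg fl/fl control alone 58 fell and 1 rose (31.5% and 32.0%). These comparisons share the Erg KO libraries. Between the CreT and Erg fl/fl controls 0 bins passed in edgeR, among the 70 or among all bins, and 3 of the 70 had an unadjusted p under 0.05.

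The falls took in both subunits. Of the large subunit genes 36 of 43 fell, with a median log2 change of -0.46, and of the small subunit genes 21 of 28 fell and 2 rose, with a median of -0.44. The 3 genes of the stalk, the arm of the large subunit on which elongation factors act, all fell, with a median of -0.58. Rplp0, the base of that stalk (chr5:115500004-115600019), had a local contact level of 0.761 and 0.869 in the Erg KO libraries, against 1.23 and 1.13 in the CreT control and 1.123 and 1.60 in the Erg fl/fl control libraries. The groups did not overlap, and the fall was -0.78 on the log2 scale (SE 0.08, adjusted p = 8.26e-08).

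Rpl38, a large subunit protein whose loss in mice alters translation of Hox messages and the pattern of the skeleton (chr11:114599983-114699937), had 0.828 and 0.844 in the Erg KO libraries, against 1.28 and 1.19 in the CreT control and 1.32 and 1.58 in the Erg fl/fl control libraries. Its fall was -0.77 (SE 0.07, adjusted p = 5.52e-08). Rps2, a small subunit protein (chr17:24700417-24799998), had 1.09 and 1.17 in the Erg KO libraries, against 1.69 and 1.59 in the CreT control and 1.59 and 2.04 in the Erg fl/fl control libraries. Rps2 and Rpl38 thus started from different control levels and fell by a similar amount, -0.73 for Rps2 (adjusted p = 5.59e-08). Rpl6 of the large subunit (chr5:121199959-121299953) had 0.787 and 0.922 in the Erg KO libraries, against 1.24 and 1.16 in the CreT control and 1.22 and 1.50 in the Erg fl/fl control libraries, a log2 change of -0.70 (adjusted p = 6.95e-08). In each of these 4 bins Erg fl/fl control replicate 2 was the highest library, and the other 3 control libraries were close to each other and above both Erg KO libraries.

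Further large falls, between -0.68 and -0.62, were those of Rpl26, Rpl13, Rpl22, Rps27 and Rpl12. Rpl26, which besides its place in the large subunit binds p53 messenger RNA, had 0.991 and 1.05 in the Erg KO libraries against 1.41 and 1.34 in the CreT control and 1.33 and 1.95 in the Erg fl/fl control libraries. Rpl22, which binds RNA and is needed for early T and B cells to progress in mice, had 0.798 and 1.01 in the Erg KO libraries against 1.23 and 1.28 in the CreT control and 1.13 and 1.41 in the Erg fl/fl control libraries. A high control level was not needed for a fall. Rps6, the substrate of S6 kinases, was among the members with the lowest control means (0.774) and fell by 0.29 on the log2 scale (adjusted p = 0.00299), while Rps7, with a control mean of 0.734, had -0.11 (adjusted p = 0.229). Rpl7a, Rpl10a and Rplp1 had the highest control means, 2.08 each, and fell by 0.39, 0.54 and 0.42.

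Rps27a and Rps12 went the other way. Rps27a, which encodes a small subunit protein fused to ubiquitin (chr11:29500304-29600183), had 1.13 and 1.20 in the Erg KO libraries, against 1.02 and 1.00 in the CreT control and 0.937 and 0.937 in the Erg fl/fl control libraries. The groups did not overlap, and the rise was 0.19 on the log2 scale (SE 0.06, adjusted p = 0.0118). Rps12 (chr10:23700433-23799922), a small subunit protein, had 1.19 and 1.11 in the Erg KO libraries, against 0.993 and 0.956 in the CreT control and 1.09 and 0.994 in the Erg fl/fl control libraries, a rise of 0.16 (adjusted p = 0.0271). Neither rise passed without Erg KO replicate 1 or without either CreT control library, where Rps27a had 0.18 to 0.22 and Rps12 0.15 to 0.18. Rps23, at the decoding centre of the small subunit, had the third most positive change, 0.07, with overlapping groups (adjusted p = 0.289). With 39.4%, 41.6% and 41.5% GC, the bins of Rps27a, Rps12 and Rps23 were among the poorest in GC of the 70.

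**Figure D1:**
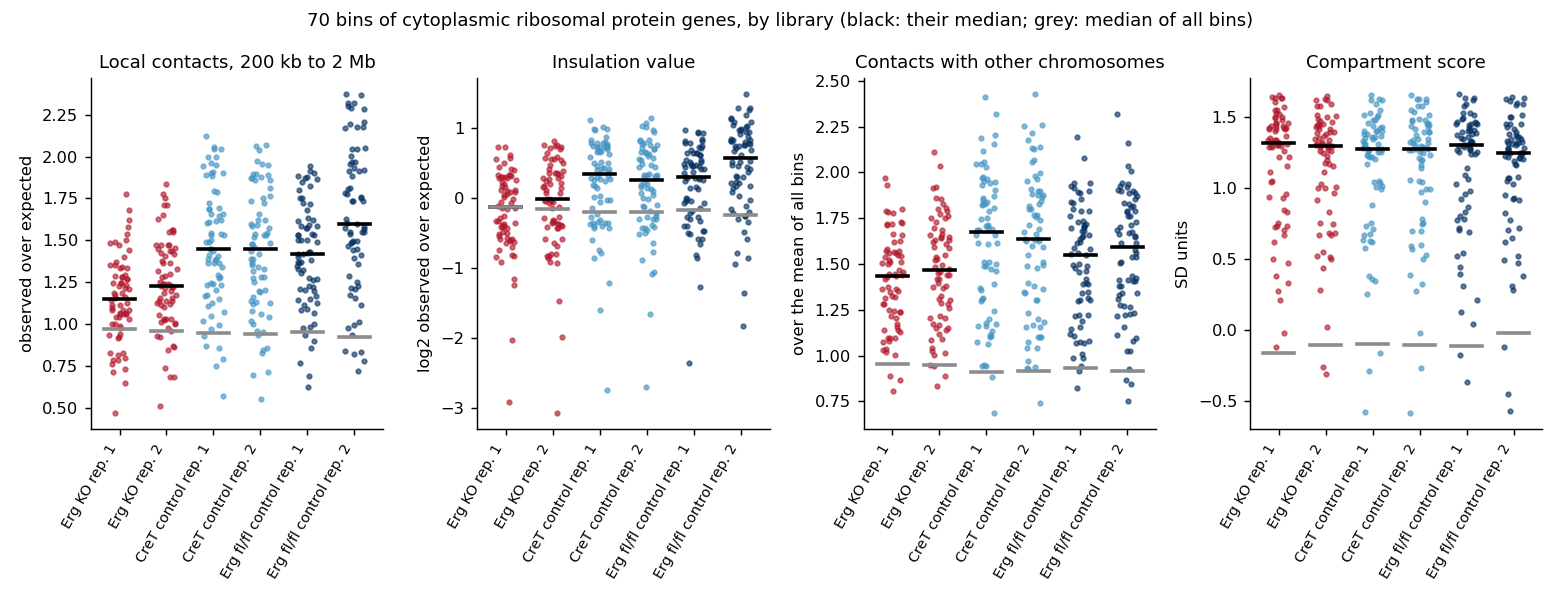
Level of the 70 bins of ribosomal protein genes in each library, for local contact, insulation, trans contact per bin and compartment score, with Erg KO libraries on the left. Each point is 1 bin and the bars mark medians, which for local contact are 1.15 and 1.23 in the Erg KO libraries and between 1.42 and 1.60 in the control libraries, while the compartment score has medians from 1.24 to 1.31 in all 6.

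The change in local contact moved with the GC content of bins across the genome. Over all bins the median log2 change was, in 5 classes of equal size from low to high GC, 0.44, 0.20, 0.006, -0.16 and -0.38. No member bin lay in the class lowest in GC, and 48 of the 70 lay in the highest, where their median change was -0.52. The 13 member bins of the next class down had a median of -0.31 and the 8 of the middle class -0.06. Between the 2 controls the medians of the classes lay between -0.01 and 0.03. When offsets for GC content were fitted per library, 23 of the 70 bins fell and 5 rose, against 17.2% and 15.8% of all bins, with a median of -0.07, and all 23 were among the 56. What GC content stands for in these counts was not tested.

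The fall at Rpl6 was -0.46 with GC offsets (adjusted p = 7.25e-06), that at Rps2 -0.34 (adjusted p = 5.34e-05), at Rpl26 -0.34 (adjusted p = 0.000568), at Rpl38 -0.31 (adjusted p = 0.000499), at Rps27 -0.28 (adjusted p = 0.00085) and at Rplp0 -0.21 (adjusted p = 0.0141). Rpl22 had 0.02 (adjusted p = 0.817) in the same fit. Rps12 still rose, by 0.17 (adjusted p = 0.0335), and Rps27a had 0.005 (adjusted p = 0.96). Rps7, which encodes a small subunit protein that also binds Mdm2, had a change of 0.24 (adjusted p = 0.0113) with these offsets.

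**Figure D2:**
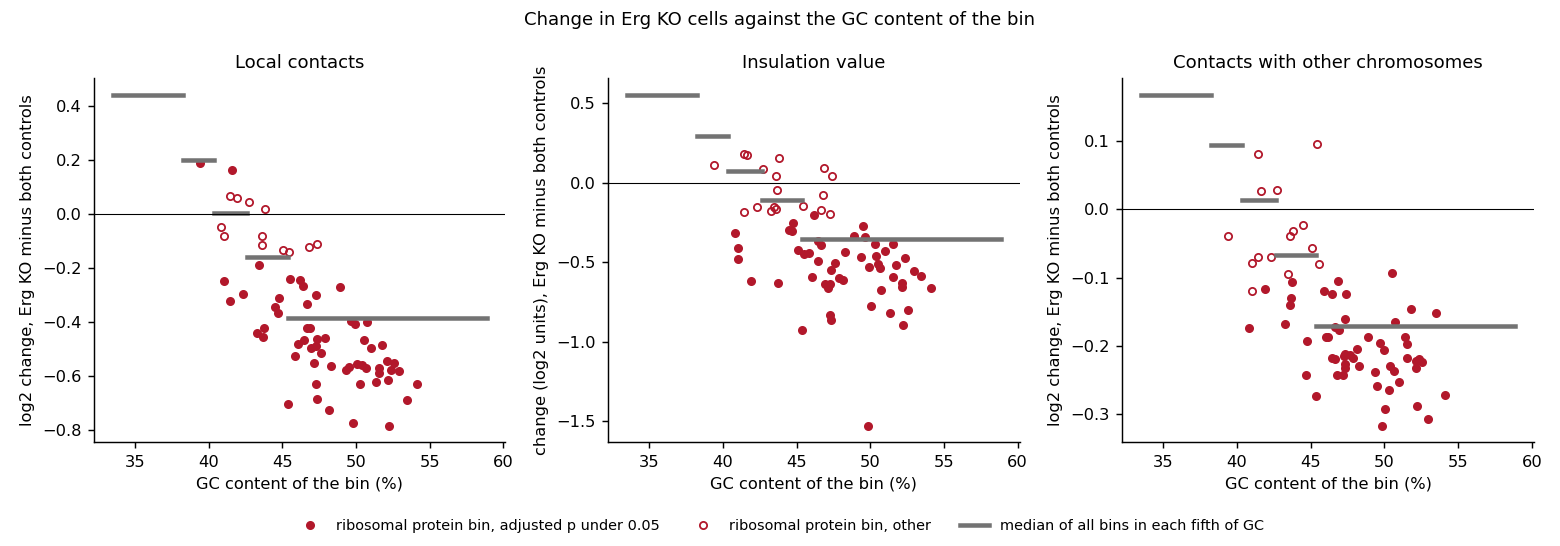
Log2 change of each of the 70 bins, Erg KO minus both controls, against the GC content of the bin in percent, for local contact, insulation and trans contact, with the median of all bins in each of 5 classes of GC content. Most ribosomal protein bins lie in the class highest in GC, where all bins have a median of -0.38 for local contact, and Rps27a, Rps12 and Rps23 lie on the GC-poor side.

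Total contacts of a bin changed too. The mean over the 70 bins, relative to all bins, was 1.17 and 1.24 in the Erg KO libraries, against 1.35 and 1.36 in the CreT control and 1.30 and 1.41 in the Erg fl/fl control libraries (p = 0.0667 in a two-sided exact permutation test, the smallest that the 15 splits of 2 against 4 libraries allow). Total contacts fell in 61 of 70 bins and rose in 0, with 38.9% of all bins falling and 39.7% rising, and a median log2 change of -0.22. With GC offsets 14 fell and 3 rose (19.4% and 17.9% of all bins). Setting local contact against the total contacts of the same bin left 46 falls and 2 rises (18.9% and 22.6% of all bins), with a median of -0.21.

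The contacts of these bins were distributed differently by distance. Contacts 200 kb to 2 Mb away made up 17.0% and 16.5% of their contacts in the Erg KO libraries, against 23.6% and 21.1% in the CreT control and 25.4% and 31.7% in the Erg fl/fl control libraries. Over all bins the same share was 17.2% and 16.4% in the Erg KO libraries and 19.8% to 27.1% in the control libraries. Contacts with other chromosomes made up 41.4% ± 1.4 in the Erg KO libraries and 29.7% ± 3.5 in the controls (SD, n = 2 and 4, exact permutation test, two-sided, p = 0.0667). Over all bins the share with other chromosomes was 35.0% in the Erg KO libraries and 25.7% in the controls. Contacts within the bin had a share of 6.15% in the Erg KO libraries and 7.02% in the controls, and those over 10 Mb away 20.04% in the Erg KO libraries and 18.7% in the controls.

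Insulation measures how freely contacts run across a bin, as log2 of observed over expected contacts between the 5 bins before it and the 5 bins after it, with low values at domain borders. Contacts ran across ribosomal protein bins less freely in Erg KO cells than in both controls. The median over the 70 bins was -0.13 and -0.02 in the Erg KO libraries, against 0.34 and 0.26 in the CreT control and 0.29 and 0.56 in the Erg fl/fl control libraries. The Erg KO libraries were below all 4 control libraries in 56 of 70 bins (28.7% of all bins). In limma the value fell in 52 of the 70 bins and rose in 0 (26.3% of all bins fell and 39.5% rose), with a median change of -0.45. Of 76 measured genes of mitochondrial ribosomal proteins, 57 fell and 2 rose, with a median of -0.36. Against the CreT control alone 49 fell and 2 rose (20.9% and 33.4% of all bins), and against the Erg fl/fl control alone 52 fell and 0 rose (25.5% and 38.3%). Between the controls 0 bins passed in limma, and 2 of the 70 had an unadjusted p under 0.05.

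By subunit, 31 large subunit genes and 22 small subunit genes fell, among them the 3 genes of the stalk. Rpl38 stood out in size. Its bin had an insulation value of -2.03 and -1.98 in the Erg KO libraries, against -0.79 and -1.07 in the CreT control and -0.60 and 0.14 in the Erg fl/fl control libraries, so that the Erg KO libraries were nearly alike while the controls spread widely, with Erg fl/fl control replicate 2 the highest. The fall was -1.53 (SE 0.14, adjusted p = 0.000579). Rpl6 had -0.59 and -0.37 in the Erg KO libraries, against 0.27 and 0.14 in the CreT control and 0.24 and 0.76 in the Erg fl/fl control libraries, a fall of -0.93 (adjusted p = 0.000579). Rplp0 had -1.16 and -0.86 in the Erg KO libraries, against -0.36 and -0.51 in the CreT control and -0.40 and 0.31 in the Erg fl/fl control libraries, a fall of -0.90 (adjusted p = 0.000608). The falls of Rpl26, Rps27, Rpl12, Rpl18, Rpl19, Rps16 and Rpl22 lay between -0.86 and -0.66, with no overlap between Erg KO and control libraries in any of them.

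The most positive changes did not pass the test. They were those of Rps23 (0.18, adjusted p = 0.0659), Rps12 (0.17, adjusted p = 0.0759) and Rpl37 (0.15, adjusted p = 0.103), all from bins with low control values. Control means were lowest for Rps29 (-2.41), Rpl37 (-1.47) and Rps23 (-1.03), and among the highest were Rps15 (1.17) and Rps10 (1.03). Rps29, a small subunit protein with a zinc finger, had -2.92 and -3.06 in the Erg KO libraries, against -2.74 and -2.70 in the CreT control and -2.36 and -1.82 in the Erg fl/fl control libraries. It fell by 0.63 (adjusted p = 0.00355), so that a fall was also found at the lowest control level.

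With the GC trend removed, insulation fell in 27 bins and rose in 4 (20.4% and 17.7% of all bins), with a median of -0.10, and 25 of the 27 were among the 52. Rpl38 had -1.09 (adjusted p = 0.000645), Rpl6 -0.73 (adjusted p = 0.000645), Rpl26 -0.55 (adjusted p = 0.00138) and Rplp0 -0.36 (adjusted p = 0.00602). With the coverage of both bins in the expected count 37 fell and 1 rose (17.5% and 26.0% of all bins).

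The bin of a ribosomal protein gene lay in a shallow dip of insulation within a stretch of higher values. At the bin itself the mean was -0.14 ± 0.08 in the Erg KO libraries and 0.23 ± 0.13 in the controls (SD, n = 2 and 4), and 300 to 500 kb away 0.11 ± 0.06 in the Erg KO libraries and 0.41 ± 0.10 in the controls. The dip, as the difference between both places, was -0.27 and -0.25 in the Erg KO libraries, against -0.19 and -0.20 in the CreT control and -0.19 and -0.13 in the Erg fl/fl control libraries. The level thus differed between Erg KO and control libraries over the whole stretch, also 1.2 to 1.5 Mb away, where it was -0.09 ± 0.02 in the Erg KO libraries and 0.09 ± 0.06 in the controls.

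A border was called where the insulation value was the lowest within 3 bins on either side. The bin was a border in 14 of 70 cases in the Erg KO libraries (20%, against 10.03% of all bins) and in 13 of 70 in the controls (18.6%, against 9.90% of all bins), and the mitochondrial ribosomal protein bins had 20.8% in the controls. Among the 13 were the bins of Rpl12, Rpl9, Rps3, Rplp1, Rpsa, Rps12, Rpl23, Rpl38, Rps29, Rps2 and Rps18. Rps3, Rpsa, Rpl23 and Rps2 were not borders in the Erg KO libraries, by a call on group means that carries no test. Counting also the bins next to a border, 47.1% of the 70 were at or beside one in the Erg KO libraries and 45.7% in the controls, against 29.6% of all bins in the controls. The share at a border varied with the window, with 17 bins (24.3%, against 12.2% of all) in the controls when 3 bins on either side entered the insulation value, and 11 of 69 (15.9%, against 7.84% of all) when 10 did.

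**Figure D3:**
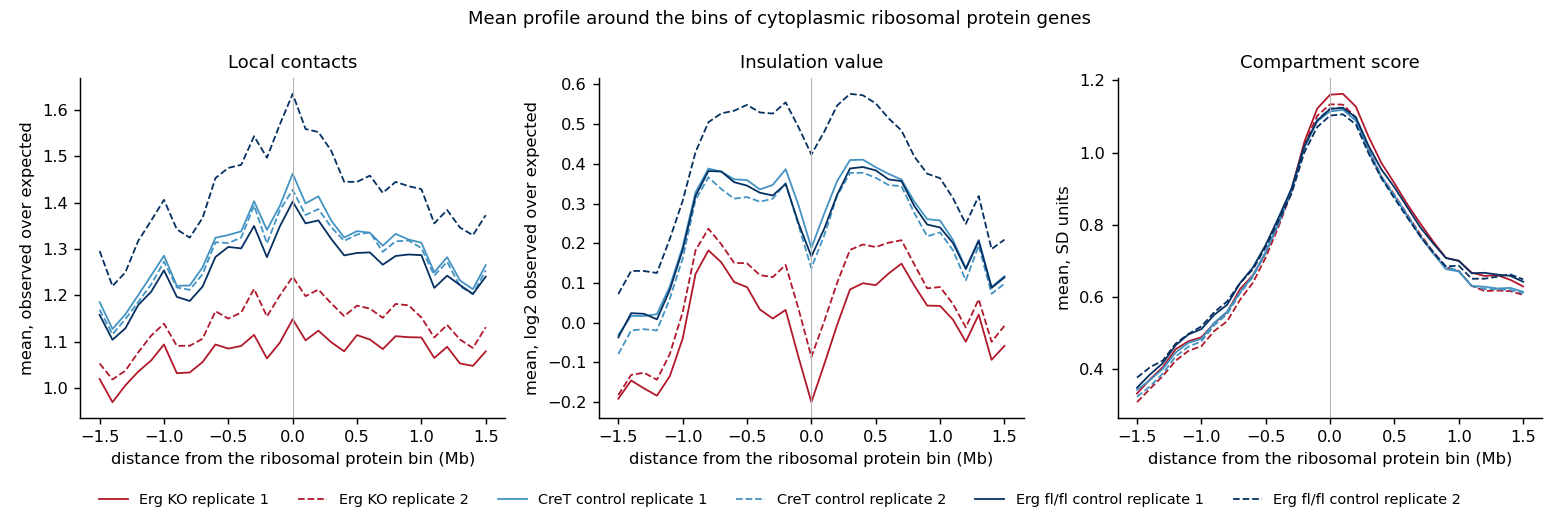
Mean insulation, local contact and compartment score around ribosomal protein bins by distance from the bin in Mb, with a line for each library of the Erg KO and both control groups. At the bin, insulation is -0.14 in the Erg KO libraries and 0.23 in the controls, with a dip at the bin in both, whereas the compartment score is 1.147 in the Erg KO libraries and 1.115 in the controls.

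The next question was whether the genes kept their place in the A compartment. The compartment score is the first pattern of long-range contact on a chromosome, signed by gene density and scaled to an SD of 1, so that positive values stand for the A compartment. Ribosomal protein genes were deep in the A compartment, and few of their bins passed a test for change, as few bins did anywhere in the genome. The median over the 70 bins was 1.31 and 1.29 in the Erg KO libraries, against 1.27 and 1.27 in the CreT control and 1.30 and 1.24 in the Erg fl/fl control libraries. In the controls 68 of 70 bins had a positive score, against 48.4% of all bins and 89.6% of mitochondrial ribosomal protein bins. By control mean, 28 of the 70 bins were in the top 10% of all bins and 45 in the top 20%. Rpl10a, Rps28 and Rps18, all on chromosome 17, had the highest control means (1.65, 1.63 and 1.62).

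In limma the score rose in 2 of 70 bins, those of Rps12 and Rps23, and fell in 0, while 1.46% of all bins rose and 2.21% fell. The median change was 0.04, and 49 of the 70 changes were positive. Both Erg KO libraries lay above all 4 control libraries in 14 of the 70 bins, against 20.2% of all bins. They lay below them in 4, against 12.6% of all bins. Rps12, with the lowest control mean (-0.52), had -0.12 and -0.26 in the Erg KO libraries, against -0.57 and -0.58 in the CreT control and -0.37 and -0.57 in the Erg fl/fl control libraries. The groups did not overlap and every library had a negative score. The change was 0.38 (SE 0.03, adjusted p = 0.0416), with adjusted p = 0.0597 against the CreT control alone and 0.0619 against the Erg fl/fl control alone, where 0 bins of the genome passed. Rps23, next lowest with -0.29, had -0.02 and -0.31 in the Erg KO libraries, against -0.29 and -0.27 in the CreT control and -0.18 and -0.45 in the Erg fl/fl control libraries. Its rise of 0.20 (SE 0.03, adjusted p = 0.047) rests on the sex term of the model, since the libraries overlap. In both genotypes with a male library that library was the lower one. Neither gene passed without that term (Rps12 0.33, adjusted p = 0.266, and Rps23 0.13, adjusted p = 0.524) or without either CreT control library, where the changes of Rps12 and Rps23 were of the same size as with it.

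Rps27a had 0.47 and 0.50 in the Erg KO libraries, against 0.26 and 0.39 in the CreT control and 0.04 and -0.12 in the Erg fl/fl control libraries. This change of 0.36 did not pass the test (adjusted p = 0.0635). Rpl38 had 0.38 and 0.52 in the Erg KO libraries, against 0.64 and 0.59 in the CreT control and 0.54 and 0.65 in the Erg fl/fl control libraries, the most negative change (-0.18, adjusted p = 0.0587). Rpl34 and Rps13 had -0.15 (adjusted p = 0.383) and -0.13 (adjusted p = 0.0903). With the GC trend removed, Rps12 had 0.42 (adjusted p = 0.0403), Rps23 0.24 (adjusted p = 0.0419) and Rps27a 0.39 (adjusted p = 0.0537), and 3 of the 70 bins rose and 0 fell (2.41% and 2.7% of all bins).

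The rises at Rps12 and Rps23 were part of wider stretches. Within 1 Mb on either side of Rps12, 12 of 21 bins rose in compartment score, and the change was as large or larger 500 kb to 1 Mb beyond it, with 0.56 in the bin of Ccn2, a secreted growth factor (adjusted p = 0.0427). Slc18b1, a vesicular transporter of polyamines, starts in the bin of Rps12, and Vnn1 and Vnn3, which encode pantetheinases, in the next. Around Rps23, 9 of 21 bins rose, all of them the bin itself or on 1 side of it, up to 0.58 in a bin without a gene start 6 bins away (adjusted p = 0.0427), while the next bin on the other side had 0.06 (adjusted p = 0.346). Of 21 bins around Rps27a 2 rose, and of 21 around Rpl38 2 fell. The scores were smoothed before they were computed, so neighbouring bins are not independent. Local contact fell in all 21 bins around Rpl38 and rose in 10 of 21 around Rps12.

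**Figure D4:**
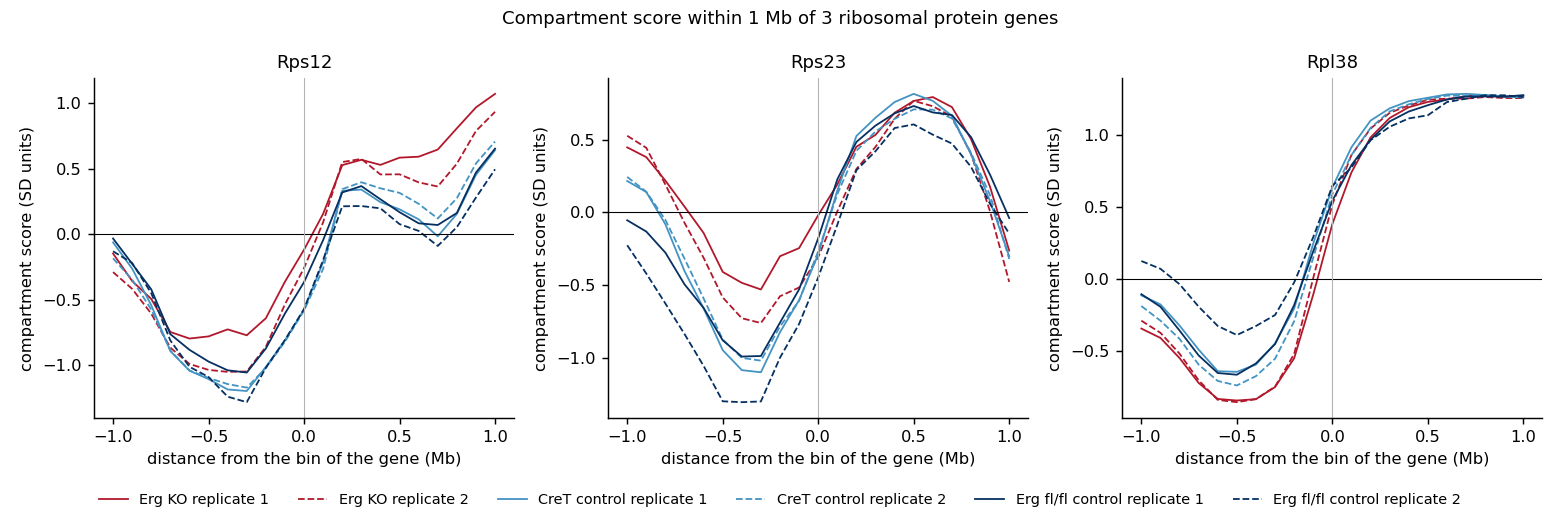
Compartment score within 1 Mb of the bins of Rps12, Rps23 and Rpl38, by distance in Mb, with a line for each of the 6 libraries. Around Rps12 the Erg KO libraries lie above the controls over most of the stretch, with group means of -0.19 and -0.52 at the gene, around Rps23 they separate on 1 side only, and at Rpl38 they are 0.38 and 0.52, against 0.54 to 0.65 in the controls.

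Trans contact per bin is the number of read pairs of a bin with other autosomes, over the mean of all bins in the same library. Ribosomal protein bins contacted other chromosomes more than most bins did, and their share of all trans contacts was smaller in the Erg KO libraries than in the controls. The median was 1.43 and 1.46 in the Erg KO libraries, against 1.67 and 1.64 in the CreT control and 1.55 and 1.59 in the Erg fl/fl control libraries. The Erg KO libraries were below all 4 control libraries in 40 of 70 bins (20.3% of all bins). In edgeR 55 of 70 bins fell and 0 rose (27.1% and 27.2% of all bins), with a median log2 change of -0.19. Of 78 genes of mitochondrial ribosomal proteins, 53 fell and 1 rose, with a median of -0.14. Against the CreT control alone 54 fell and 1 rose (25.4% and 25.0% of all bins), and against the Erg fl/fl control alone 38 fell and 0 rose (20.2% and 17.2%). The controls differed from each other here, as 13 of the 70 bins were higher in the CreT control than in the Erg fl/fl control and 0 lower, against 2.29% and 0.524% of all bins.

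Rpl38 again had the largest fall, with 1.44 and 1.55 in the Erg KO libraries, against 1.81 and 1.88 in the CreT control and 1.72 and 1.76 in the Erg fl/fl control libraries (-0.32, SE 0.04, adjusted p = 4.21e-08). Rplp2, an acidic protein of the stalk, had 1.55 and 1.61 in the Erg KO libraries, against 1.95 and 1.84 in the CreT control and 1.80 and 1.94 in the Erg fl/fl control libraries (-0.31, adjusted p = 5.52e-08). Rpl19 and Rplp0 each had -0.29, and Rpl6, Rpl22, Rpl13, Rpl3 and Rpl31 lay between -0.27 and -0.24, with no overlap between Erg KO and control libraries. By subunit 36 large and 20 small subunit genes fell. Rpl37a, Rps23 and Rpl30 had the most positive values, 0.09 (adjusted p = 0.133), 0.08 (adjusted p = 0.153) and 0.03 (adjusted p = 0.601).

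These falls depended on the scaling. All bins of the class highest in GC had a median of -0.17, and the 48 member bins among them -0.22. With GC offsets 5 of the 70 bins fell and 2 rose (12.6% and 10.3% of all bins), with Rpl6 at -0.17 (adjusted p = 0.00269) and Rpl38 at -0.11 (adjusted p = 0.0283) among those that fell. Relative to the total contacts of each bin, 1 fell and 20 rose (12.8% and 17.7% of all bins), and the median turned to 0.06. The trans contacts of these bins thus fell as a share of all trans contacts, while they made up a larger share of each bin's own contacts.

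Local contact, insulation and trans contact fell together in 45 of the 70 bins, against 17.2% of all bins tested for the 3 readouts. In 7 bins none of them fell, those of Rpl37a, Rps12, Rps27a, Rps23, Rpl37, Rpl30 and Rpl24. The readouts come from the same read pairs and are not independent.

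Single bin pairs were then tested, as differential interactions. Of 2821 tested pairs with a ribosomal protein bin at 1 end, 606 fell and 5 rose in edgeR, against 6.27% and 6.49% of 431131 pairs tested, with a median log2 change of -0.34. Of 2823 pairs with a mitochondrial ribosomal protein bin, 538 fell and 18 rose, with a median of -0.30. Between the controls 0 of the 2821 passed. By distance, the falls took in 16 of 70 bins with themselves, 68 of 138 pairs with the next bin, 511 of 1988 pairs at 200 kb to 2 Mb, 11 of 555 at 2 to 10 Mb and 0 of 70 beyond. Falls among all tested pairs were not counted by distance. Whether this spread over distance is particular to ribosomal protein bins was therefore not tested. Rps25 had the most falling pairs for its bin, 19 of 28, and Rpl13 had 18 of 34, while Rps12 had 2 of 38 rising and Rps27a 1 of 30. With GC offsets 83 fell and 33 rose (0.983% and 1.46% of all pairs), with a median of -0.06. The number of pairs that passed depended on single libraries, among all tested pairs as among these. With Erg KO replicate 1 left out, the median log2 change of the 2821 pairs was -0.45. It was -0.30 with the other Erg KO library left out. DESeq2 called 1 falling pair.

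Of the largest falls by gene, that of Rps2 rested on the most reads. Its bin and 1 that lies 6 bins away, with the protease genes Tpsab1, Tpsb2, Tpsg1, Prss28 and Prss29, had 18.6 and 20.3 normalised counts in the Erg KO libraries, against 60.3 and 45.2 in the CreT control and 57.9 and 111 in the Erg fl/fl control libraries. The groups were far apart, and the change was -1.96 (SE 0.25, adjusted p = 6.51e-10). The largest change was that of Rplp0 with a bin 8 bins away, -3.38 (SE 0.73, adjusted p = 0.000389), from 1.07 and 1.08 normalised counts in the Erg KO libraries against 7.14 and 7.18 in the CreT control and 12.8 and 20.6 in the Erg fl/fl control libraries. Such counts are low, and the size of the change is correspondingly loose. The largest falls of Rps23, Rpl9, Rps14, Rpl15, Rpl6, Rpl29, Rpl26 and Rpl18 lay between -2.97 and -2.01, with SE between 0.47 and 0.69. The calls of these 10 pairs depended on having both Erg KO libraries, as calls among all tested pairs did.

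In 13 tested pairs both bins held a ribosomal protein gene. Rps10 and Rpl10a, 7 bins apart on chromosome 17, had 21.01 and 14.1 normalised counts in the Erg KO libraries, against 56.99 and 41.7 in the CreT control and 40.2 and 72.6 in the Erg fl/fl control libraries (-1.67, SE 0.27, adjusted p = 1.26e-06). Rpl23 and Rpl19, 3 bins apart on chromosome 11, had 87.0 and 101.3 in the Erg KO libraries, against 133 and 122 in the CreT control and 150 and 187 in the Erg fl/fl control libraries (-0.71, adjusted p = 3.26e-05). Rps28 with Rps18, in neighbouring bins, fell by 0.31 (adjusted p = 0.0234). Rpl41 with Rps26, also neighbours, had -0.22 and did not pass (adjusted p = 0.0543).

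The last question was whether ribosomal protein genes on different chromosomes contact each other. The 70 bins form 2251 pairs on different autosomes, which held 2926 read pairs over the 6 libraries, with a median of 1 per pair and 0 in 849 pairs. Summed over these pairs, contacts were well above the number expected from the trans contacts of each bin, in every library and to a like degree. Observed over expected was 1.73 and 1.78 in the Erg KO libraries, against 1.88 and 1.76 in the CreT control and 1.94 and 1.70 in the Erg fl/fl control libraries. On the log2 scale this was 0.81 ± 0.03 in the Erg KO libraries and 0.86 ± 0.09 in the controls (SD, n = 2 and 4). The difference of -0.05 was smaller than the spread of the controls (p = 0.533, two-sided exact permutation test).

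Much of this excess was shared by bins of the same compartment. All bins of the top 10% by control score had 1.69 and 1.65 among themselves in the Erg KO libraries, against 1.73 and 1.77 in the CreT control and 1.73 and 1.63 in the Erg fl/fl control libraries, and mitochondrial ribosomal protein bins had 1.59 and 1.61 in the Erg KO libraries and 1.61 to 1.77 in the controls. When the expected count was taken from bins with a like compartment score, ribosomal protein bins had 1.33 and 1.40 in the Erg KO libraries, against 1.43 and 1.33 in the CreT control and 1.48 and 1.33 in the Erg fl/fl control libraries. The 95% counting interval lay above 1 in every library, the lowest bound being 1.15 in Erg fl/fl control replicate 2. With bins of a like number of gene starts the values were 1.27 and 1.33 in the Erg KO libraries and 1.23 to 1.39 in the controls. With no correction for the coverage of bins the log2 values were 1.83 in the Erg KO libraries and 2.14 in the controls (difference -0.31, exact permutation p = 0.0667), and the top 10% of bins had a like difference, -0.32.

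**Figure D5:**
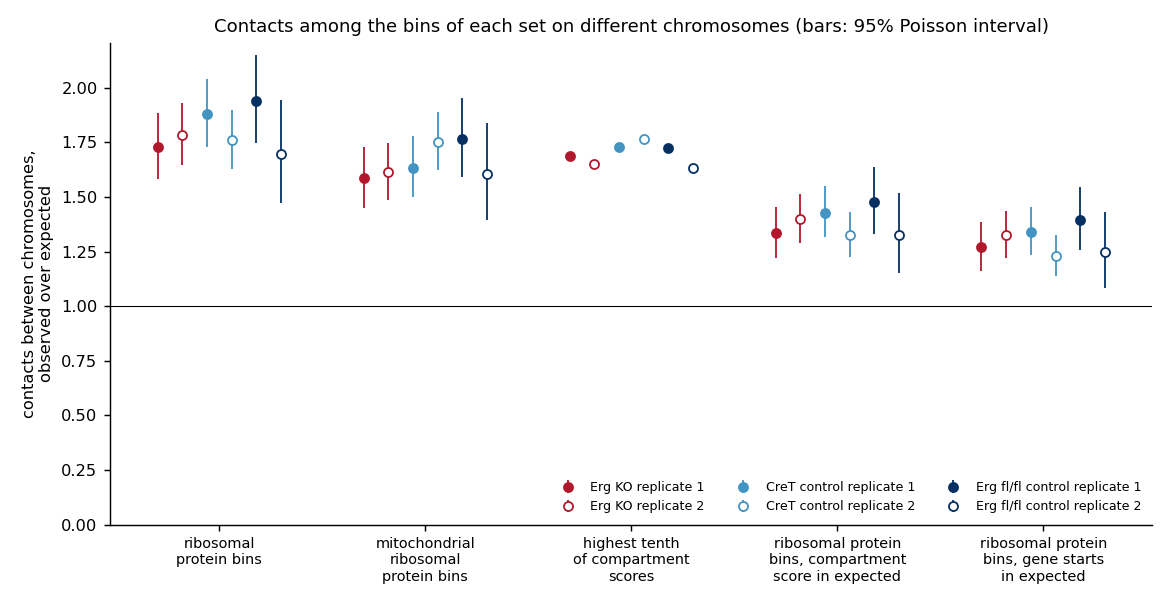
Observed over expected trans contact per library among ribosomal protein bins, mitochondrial ribosomal protein bins and the top 10% of bins by compartment score, and again among ribosomal protein bins with a like compartment score or a like number of gene starts in the expected count. Bars are 95% Poisson intervals, which for the top 10% are smaller than the points. Values of ribosomal protein bins lie between 1.70 and 1.94 in all 6 libraries, with 1.73 and 1.78 in Erg KO.

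By gene, 62 of the 70 bins had more trans contact with the others than expected over all libraries, 49 with a 95% Poisson interval above 1 and 0 with an interval below 1. These intervals cover counting error only. Rpl23, which like Rpl11 and Rpl5 can bind Mdm2, was highest, with 2.85 (interval 2.41 to 3.35) and with 2.57 in the Erg KO libraries and 3.03 in the controls. The bin of Rps18 had 2.60. Rps23 (0.79), Rpl37a (0.79) and Rps12 (0.83) were lowest, and these genes also had the lowest compartment scores of the 70. The value was lower in Erg KO than in control libraries for 42 of 70 bins. The pair with the most read pairs, Rpl23 with Rpl3, had 13 against 1.23 expected over all libraries, and Rpl41 with Rpl36 had 11 against 1.08.

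On the same chromosome, 157 pairs of member bins lay over 2 Mb apart. Their contacts over those expected at that distance were 2.03 and 2.41 in the Erg KO libraries, against 2.32 and 2.52 in the CreT control and 2.34 and 2.15 in the Erg fl/fl control libraries. The log2 difference was -0.08 (exact permutation test, two-sided, p = 0.533). From 500 kb apart on, which takes in close pairs such as Rps10 with Rpl10a, it was -0.20 (exact permutation p = 0.0667, the smallest possible).

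Genes that work with these proteins mostly showed the same direction. In local contact, genes of ribosome biogenesis and of mitochondrial ribosomal proteins fell about as often as ribosomal protein genes (57 of 71), with smaller median changes. Of 51 genes of ribosome biogenesis, which process ribosomal RNA and assemble subunits, local contact fell in 41 and rose in 0, with a median log2 change of -0.28. Insulation fell in 40 of 50 and trans contact in 32 of 51, against 26.3% and 27.1% of all bins. Of 14 measured genes of translation factors with TOP messages, local contact fell in 9, such as Eef2, an elongation factor, and Pabpc1, which binds poly(A) tails, and rose at Eif3e and Eif3h, subunits of an initiation factor. Rps3a1, Fau and Rack1, ribosomal protein genes that the naming rule misses, fell in local and in trans contact. Of 8 measured paralogues 6 fell in local contact, and Rpl10l, a testis gene that can stand in for Rpl10, rose. Mitochondrial ribosomal protein genes fell in 61 of 78 cases and rose in 3, with a median of -0.34. Over all bins 33.2% fell in local contact.

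Genes of the B lineage and of stromal feeder cells were counted in the same way. Of 20 B-lineage genes in 18 bins, among them Pax5, Vpreb1 and Igll1, local contact fell in 16 and rose at Ikzf1 (median -0.21), and of 16 genes of stromal feeder cells it fell in 5 and rose in 5 (median -0.10), against 33.2% of all bins that fell and 34.3% that rose. Contact counts cannot give the share of feeder cells, and its part in the values of ribosomal protein bins was not tested. Trans contact among 75 pairs of TOP translation factor bins rested on 13 and 15 read pairs in the Erg KO libraries, against 19 and 19 in the CreT control and 12 and 11 in the Erg fl/fl control libraries, with log2 values of 0.37 in the Erg KO libraries and 0.98 in the controls (exact permutation p = 0.133).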

How the data were processed

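The authors aligned in situ Hi-C reads to mm10 and counted read pairs with diffHic, after removal of duplicates and of unligated or overlong fragments, and deposited raw counts of read pairs for pairs of bins of about 100 kb. The 6 matrices were used as deposited, with autosomal bins kept between 0.3 and 3 times the median coverage (23649 of 24067). The matrices' totals, 29014581 to 68085468 read pairs per library, set the precision, and the file that lists the bins holds coordinates only. Genes were placed by their start in GENCODE annotation M21. GC content came from GRCm38 and promoter windows from RefSeq.

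Counts per bin (TMM scaling) and per bin pair (at least 10 read pairs, an abundance at least 5 times that between chromosomes in bins of 500 kb, loess offsets) were tested in edgeR 4.0.16 (quasi-likelihood, R 4.3.3), with group and sex in the model. Insulation and compartment scores were tested with limma 3.58.1. Erg KO was compared with both controls averaged and with each alone, and the CreT with the Erg fl/fl control, with Benjamini-Hochberg adjusted p under 0.05 over all bins or pairs. Fold changes are Erg KO over controls on the log2 scale. Contacts among member bins were compared by two-sided exact permutation tests, with 15 arrangements of 2 against 4 libraries. The tests across bins and bin pairs were tested on simulated data.

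Genes with values were named by a rule: per readout up to 10 that passed with the same sign against each control, the 3 most positive and 3 most negative changes, the 3 highest and lowest control levels, genes sharing a bin, and the highest and lowest in trans contact with other members. Values of some genes are not reported here. The members, lists and rules were chosen with earlier results of these data known. Alternatives were other normalizations, filters, windows and covariates, GC offsets, DESeq2 1.42.0 and each library left out. Offsets for total contacts, insulation with bin coverage, scores not centred, total contacts as a readout and other border windows were added after seeing the data. Python 3.11.15 served for the rest.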

Additional observations from a re-analysis of the deposited data

Results flagged for a closer look

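Among the 4 control libraries, 8 of 66 values, of single genes or over all members, had 1 library far from the others, with a gap to the nearest library that, over the whole range, was above Dixon's 95% critical value. Chance flags about 1 in 20 such groups. In 6 of the 8 the library apart was Erg fl/fl control replicate 2. For local contact this was Rpl26 (gap over range 0.869), with 1.95 against 1.33 to 1.41 in the other control libraries. For insulation it was Rpl12 (0.952), with 0.83 against 0.33 to 0.36, Rps16 (0.86), with 0.82 against 0.44 to 0.49, and Rpl22 (0.85), with 0.42 against -0.05 to 0.02. For trans contact it was Rpl22 (0.965), with 1.41 as the highest, and Rps23 (0.935), with 0.843 against 0.939 to 0.945. In the other 2 it was Erg fl/fl control replicate 1, for the compartment score of Rps12 (0.949), with -0.37 against -0.58 to -0.57, and for trans contact of Rpl6 (0.895), with 1.55 against 1.66 to 1.67. The Erg KO libraries did not overlap with the controls in any of these 8.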

How the results depend on the processing

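The median changes of local contact, insulation and total contacts kept their direction under every alternative run, and more bins fell than rose in each. GC offsets lowered the counts to 23 falls and 5 rises in local contact, 27 and 4 in insulation (trend removed), 5 and 2 in trans contact, 14 and 3 in total contacts, and 83 and 33 among bin pairs. Rpl22 then had 0.022 in local contact. With total contacts as an offset, trans contact fell in 1 bin and rose in 20, its median was 0.062, and the changes of Rpl19 (0.013), Rplp0 (0.081), Rpl6 (0.020), Rpl22 (0.10), Rpl13 (0.097) and Rpl3 (0.031) were positive. What causes this was not tested.

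Rises were few and unstable. In local contact they numbered 0 with DESeq2 and 1 without the sex term or with a window of 500 kb to 5 Mb, where Rps27a had -0.069. In insulation they numbered 2 with 10 bins on either side and 1 with coverage in the expected count, and Rpl37 had -0.026 with 3 bins. In compartment score they numbered 0 without the sex term, 1 with ranks and 0 with scores not centred, where the median was -0.059. Rpl30 had -0.0013 in trans contact without the sex term. Pairs that fell numbered 364 without the sex term and 1 with DESeq2, which called few pairs at all, and pairs that rose 12 with TMM scaling, 9 with a count minimum of 20 and no abundance filter, 1 without the sex term and 0 with DESeq2.

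No label says that a replicate number marks a shared source, and deviations of same-numbered libraries correlated between -0.488 and 0.54. With the replicate block 55 bins fell and 1 rose in local contact, 47 and 0 in insulation and 46 and 0 in trans contact. It gave 59 and 0 in total contacts, 0 and 0 in compartment score, and 372 and 1 among bin pairs. Of all 431131 pairs tested, 13590 fell and 13466 rose with this block. Shares of all bins with the block are not given here.

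With each library left out, local contact fell in 55 to 61 bins and rose in 0 to 2, insulation fell in 49 to 58 and rose in 0 to 3, trans contact fell in 37 to 56, total contacts fell in 57 to 63, and the compartment score rose in 0 to 9 and fell in 0 to 3. Pairs fell in 0 to 670 cases and rose in 0 to 12. A lone library is then assumed to vary like the other groups, and without a male library the sex term takes up the other one. Shares of all bins are not given for these fits, and the number of all tested pairs that passed also shifted with the library left out. These ranges therefore show how the calls depend on single libraries, and not whether ribosomal protein bins differed from other bins. The compartment change of Rpl34 lay between -0.42 and 0.011, the positive value without either male library. The log2 difference between Erg KO and control libraries in trans contact among members lay between -0.08 and -0.02, and in contact on the same chromosome between -0.20 and 0.048, the positive value without Erg KO replicate 1.

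The log2 level of trans contact among members was 0.45 in Erg KO and 0.47 in control libraries against bins of a like compartment score, 0.38 and 0.38 for a like number of gene starts, 0.72 and 0.75 with the bin on either side, and 1.83 and 2.14 with no coverage in the expected count. The median of 1 read pair per pair of bins does not allow single trans pairs to be compared between genotypes.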
